A study of Mus with 4 samples.

Results

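Solute carrier (SLC) transporters of the plasma membrane and of organelles were examined in 2 lists of N6-methyladenosine (m6A) peaks from mouse interscapular brown adipose tissue (iBAT). A gene was included when its symbol was Slc, a family number, a letter and further characters. Names beginning with *Slc25* (mitochondrial carriers) or *Slc27* (fatty acid transport proteins) were left out, as was *Slc2a4*, the insulin-responsive glucose transporter. By this rule 137 of the 10105 named genes with a peak in either list were included. They carried 214 of the 18400 peaks of *Wtap*flox/flox iBAT, on 121 genes, and 179 of the 18693 peaks of *Wtap*-BKO iBAT, on 106 genes. The rule works on names alone, and 4 of the 137 names (*Slc4a1ap*, *Slc7a6os*, *Slc9a3r1* and *Slc9a3r2*) belong to proteins that are not transporters.

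SLC proteins carry sugars, amino acids, ions, metals, nucleosides, vitamins and other solutes across membranes, some by facilitated diffusion and others by coupling to gradients of sodium, protons or a second solute. Some act at the cell surface and others at the lysosome, Golgi, endoplasmic reticulum or mitochondrion. Brown adipocytes burn glucose, amino acids and fatty acids to produce heat, and take up glucose and amino acids through such carriers. WTAP is a regulatory subunit of the methyltransferase complex that places m6A on mRNA, in which METTL3 is the catalytic subunit, and m6A is known to affect the stability, splicing and translation of transcripts. m6A lies preferentially around stop codons and in the 3′ part of mRNAs.

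The controls were *Wtap*flox/flox C57BL/6 mice, in which exon 4 of *Wtap* is flanked by loxP sites and no Cre is present. The *Wtap*-BKO mice carried the same floxed alleles together with UCP1-iCre, a Cre expressed from the *Ucp1* locus, so that recombination is limited to cells that express *Ucp1*, and other cells of the tissue keep *Wtap*. Mice of both genotypes were 8 weeks old and ate normal chow. For each genotype there was 1 sample of the m6A immunoprecipitate (IP), 1 sample of its input, and 1 peak list. Samples were pooled from 8 mice, and whether IP and input came from the same pool is not stated in the sources used here. A single pool gives no spread between mice against which the genotypes could be tested, and the 95% Wilson intervals below cover counting error only. The depth behind the lists is unknown. A peak is a stretch of exons with more IP reads than its input would give, and a gene without a listed peak had none that passed the authors' false discovery rate of 0.05.

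Fold enrichments and false discovery rates of lists called separately share no scale, so peaks were compared between genotypes by their rank. The rank is the percentage of the same list with a weaker false discovery rate, and a stronger peak is one that ranks higher in this way. The same peak can rank very differently by fold enrichment. A peak does not measure the amount of transcript, and in bulk tissue fewer cells of a type and less RNA per cell cannot be told apart. *Wtap* itself carried 4 peaks in each list, all of them found in the other, and these do not check the genotype. All 10 brown adipocyte markers examined, *Ucp1* among them, had a peak, 9 in both lists and *Elovl3* in the control list only. Among markers of other cells, single-list genes were on the *Wtap*-BKO list. Of 10 macrophage, 10 lymphocyte, 10 fibroblast, 10 endothelial and 10 skeletal muscle markers, 9, 5, 9, 10 and 9 respectively had a peak in either list. Of these, 3, 3, 1, 2 and 7 respectively had peaks in the *Wtap*-BKO list only, and none had peaks in the control list only. Over all named genes 13.2% were in the *Wtap*-BKO list only and 13.5% in the control list only. The fibroblast and endothelial counts in the *Wtap*-BKO list only were near that share. Peaks on macrophage markers numbered 8 in the control and 18 in the *Wtap*-BKO list, and those on skeletal muscle markers 2 and 14. *Adgre1* among the macrophage markers and *Cd3e* and *Ms4a1* among the lymphocyte markers had no peak in either list. The part of such cells in the results below was not tested.

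Most SLC genes with a peak had one in both genotypes. Peaks were listed in both genotypes for 90 of 137 genes (65.7%, 95% interval 57.4 to 73.1), in the control list only for 31 (22.6%, 16.4 to 30.3) and in the *Wtap*-BKO list only for 16 (11.7%, 7.32 to 18.1). Among all 10105 named genes 73.3% were in both lists, 13.5% in the control list only and 13.2% in the *Wtap*-BKO list only. The share of SLC genes on the *Wtap*-BKO list alone was therefore near that of all genes, while the share on the control list alone was 22.6% against 13.5%. The 31 *Slc25* carriers left out by the rule had 22 genes in both lists (71%), 6 in the control list only (19.4%) and 3 in the *Wtap*-BKO list only (9.68%).

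SLC genes found in 1 list carried mostly single and weaker peaks, as single-list genes did over all named genes. Of the 31 control-only genes 24 had 1 peak (77.4%, against 78.5% of all control-only genes), and of the 16 *Wtap*-BKO-only genes 12 had 1 peak (75%, against 78.9%). The strongest peak of a control-only gene was stronger than a median 42.8% of the control list, against 73.6% for SLC genes in both lists, and the same medians over all named genes were 35.2% and 71.2%. For the *Wtap*-BKO-only genes the median was 20.8%, against 65.4%, and over all named genes 26.6% and 70.5%. Among control-only genes 4 had a peak stronger than 80% of their list, namely *Slc2a5*, *Slc19a1*, *Slc52a2* and *Slc26a6*, and among *Wtap*-BKO-only genes none of the 16 did. These shares, 12.9% and 0%, stood beside 8.01% of 1361 control-only and 1.5% of 1335 *Wtap*-BKO-only genes over all named genes. Restricted in both lists to false discovery rates under 1e-05, the count was 65 genes in both, 29 in the control list only and 7 in the *Wtap*-BKO list only, that is 64.4%, 28.7% and 6.93% of 101 genes. All named genes gave 66.8%, 20.1% and 13.1% at that threshold. Of the 29 control-only genes 18 also had no *Wtap*-BKO peak at the authors' threshold, and of the 7 *Wtap*-BKO-only genes 3 had no control peak there.

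The 319 protein-coding genes of the mouse RefSeq table that meet the naming rule include all 137, so 42.9% of them had a peak, against 44.4% of all protein-coding names. Of 48 families 39 had at least 1 gene with a peak. *Slc35*, whose members carry nucleotide sugars across Golgi and endoplasmic reticulum membranes or have no assigned substrate, had 20 of 27 genes with a peak, 20 in the control list and 15 in the *Wtap*-BKO list, with 33 and 24 peaks. *Slc16*, the monocarboxylate transporter family, went the other way, with 10 of 14 genes, 7 in the control and 8 in the *Wtap*-BKO list, and 10 and 16 peaks. The zinc importer family *Slc39* had 15 and 10 peaks and the zinc exporter family *Slc30* 11 and 10. *Slc6*, which takes up neurotransmitters and amino acids with sodium, had 6 of 21 genes with a peak, and *Slc22*, the organic ion transporters, 6 of 25.

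By substrate, 81 of the 137 genes carried glucose and other sugars, amino acids and peptides, inorganic ions, metals and heme, or nucleosides and nucleobases. In these 5 classes 53 genes (65.4%) were in both lists, 18 (22.2%) in the control list only and 10 (12.3%) in the *Wtap*-BKO list only, as shown in the bar chart of genes by class. Metals and nucleosides had the fewest single-list genes, with 3 of 19 and 0 of 3. Carboxylates, outside these classes, were the class in which more genes were on the *Wtap*-BKO list alone (3) than on the control list alone (1), if the 4 non-transporters are set aside. Vitamins and other organic solutes had 7 control-only genes and 1 *Wtap*-BKO-only gene of 19. With 3 to 27 genes a class, the counts describe these lists and no class was tested against another.

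**Figure D1:**
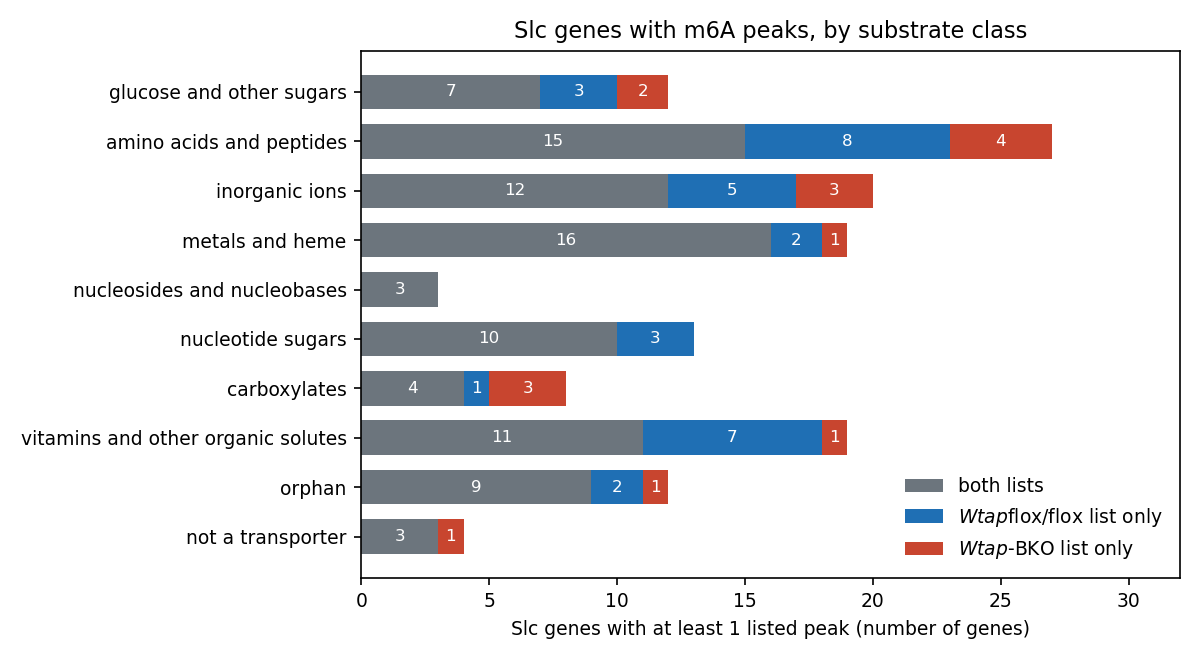
Number of *Slc* genes with at least 1 listed m6A peak in each of 10 substrate classes (horizontal axis, number of genes). Bars are split into genes with peaks in both lists (grey), in the *Wtap*flox/flox list only (blue) and in the *Wtap*-BKO list only (red). Metals and heme have 16 of 19 genes in both lists, and vitamins and other organic solutes have 7 of 19 in the *Wtap*flox/flox list only.

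Of the 12 genes for glucose and other sugars, 7 had peaks in both lists, 3 in the control list only and 2 in the *Wtap*-BKO list only. *Slc2a1*, the basal glucose transporter of most cells, had its strongest peak over the same 570 bases close to the 3′ end of the gene (chr4:119136725-119137294, GRCm38, plus strand). That peak was stronger than 78% of the control list and 86.1% of the *Wtap*-BKO list by false discovery rate. By fold enrichment, 26.6 and 11.5, the order was reversed, above 96.4% of the control and 82% of the *Wtap*-BKO list. *Slc2a3*, a high-affinity glucose transporter, had 1 weak peak of 91 bases in each list, of which 61 bases were shared. *Slc2a5*, the fructose transporter, differed from *Slc2a1*. It carried a single control peak of 986 bases (chr4:150143035-150144020, plus strand), with its centre 640 bases from the 3′ end. Its fold enrichment was 14.2 and its log10 false discovery rate -94.9, stronger than 95.2% of the list. No *Wtap*-BKO peak was listed anywhere on *Slc2a5*. The other single-list genes of the class had weaker peaks. *Slc2a8* and *Slc2a12*, further members of the glucose transporter family, had 2 control peaks each, the better stronger than 41.1% and 15.5% of the list, and *Slc2a9*, a urate and hexose transporter, and *Slc2a6* had 1 *Wtap*-BKO peak each, stronger than 26.2% and 11.9%. *Slc45a4*, a proton-coupled sugar transporter by family, had 7 control and 4 *Wtap*-BKO peaks, more over both lists than any other SLC gene. All 4 *Wtap*-BKO peaks lay on control peaks, and the 3 control peaks without a counterpart were stronger than 7.12% to 47.7% of their list. *Slc37a2*, a sugar phosphate exchanger of the endoplasmic reticulum best known from macrophages, ranked at 13.9% in the control and 42.6% in the *Wtap*-BKO list, on 120 shared bases.

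Amino acid and peptide transporters were the most numerous class, with 27 genes, of which 15 were in both lists, 8 in the control list only and 4 in the *Wtap*-BKO list only. *Slc36a2*, a proton-coupled transporter of small amino acids that is used as a surface marker of brown adipocytes, had one of the strongest SLC peaks of either list. The peak covered the same 210 bases in both (chr11:55184868-55185077, minus strand) and was stronger than 98% of the control and 99.2% of the *Wtap*-BKO list. A second, weaker control peak of 120 bases, centred 361 bases from the 3′ end of *Slc36a2*, had no counterpart. *Slc1a5*, a glutamine and neutral amino acid exchanger, matched between the lists in its 5′ part but not at its 3′ end. Its 2 upstream control peaks, of 150 and 448 bases, were both found in the *Wtap*-BKO list, where they were stronger than 91.3% and 98.4% of peaks. By fold enrichment, 2.18 and 2.05, these *Wtap*-BKO peaks were above only 12.3% and 9.76% of the list. The remaining control peak, of 329 bases with its centre 551 bases from the 3′ end, carried a false discovery rate given as 0, stronger than 99.2% of the list, and shared no base with a *Wtap*-BKO peak. Its fold enrichment, 4.12, was above 29.4% of the control list. *Slc3a2*, the heavy chain shared by several amino acid exchangers, and *Slc38a2*, the sodium-coupled system A transporter, were stronger than 80% of both lists, at 80.8% and 91.3% for *Slc3a2* and at 88.9% and 88.1% for *Slc38a2*.

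Within the same class, several genes were listed in 1 genotype. *Slc7a6*, an exchanger of cationic and neutral amino acids, had 5 control peaks that covered 1259 bases and no *Wtap*-BKO peak. Of these, 4 lay within 2000 bases of the 3′ end, and the best was stronger than 72.2% of its list. *Slc6a19*, a neutral amino acid transporter of gut and kidney, had 1 control peak stronger than 58.7%, and the other 6 control-only genes had peaks stronger than 0.326% to 49.9%. In the other direction *Slc6a6*, the taurine transporter, had 3 *Wtap*-BKO peaks of 151, 91 and 181 bases in its last 4 kb, the best stronger than 48.6% of the list, and no control peak. *Slc7a5*, the light chain partner of *Slc3a2* for large neutral amino acids, *Slc6a9*, a glycine transporter whose peak lay opposite a peak on the other strand, and *Slc6a12*, a betaine and GABA transporter, had 1 weak *Wtap*-BKO peak each, stronger than 1.85%, 5.63% and 3.08% of the list. *Slc36a1*, a lysosomal relative of *Slc36a2*, ranked at 80.5% and 29.4%, with 3 control peaks and 1 *Wtap*-BKO peak. *Slc7a1*, a cationic amino acid transporter, had 3 control peaks and 1 *Wtap*-BKO peak and ranked at 43.6% and 10.7%. *Slc7a10*, the small neutral amino acid transporter known as a marker of white adipocytes, had no peak in either list.

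The 20 inorganic ion transporters divided into 12 in both lists, 5 in the control list only and 3 in the *Wtap*-BKO list only. *Slc24a3*, a sodium/calcium-potassium exchanger, had 4 control and 3 *Wtap*-BKO peaks. The first 3 matched in order along the gene, and all were stronger than 83.6% of their list or more. The control peak nearest the 3′ end, 747 bases long, was stronger than 97.7% of its list and had no *Wtap*-BKO counterpart. *Slc12a7*, a potassium-chloride cotransporter, showed the same arrangement. Its 2 upstream peaks were found in both lists, at best stronger than 95.9% of the control and 85.9% of the *Wtap*-BKO list. Its 3 control peaks nearest the 3′ end, of 270, 420 and 180 bases, were not found. These were weaker than the unmatched *Slc24a3* peak, stronger than 52.5%, 67.8% and 52.8% of the control list. By fold enrichment they were above only 3.9%, 9.47% and 5.69% of it. *Slc12a2*, the sodium-potassium-chloride cotransporter, had 2 matching peaks, with best ranks of 81.1% and 81.9%, although its upstream peak covered 599 bases in the control and 90 in the *Wtap*-BKO list. *Slc20a1*, a phosphate transporter, ranked at 31.3% in the control and 42.7% in the *Wtap*-BKO list. Control-only genes of the class were *Slc26a6*, an anion exchanger (82%), *Slc4a4*, a sodium bicarbonate cotransporter (73.7%), *Slc8b1*, the mitochondrial sodium/calcium exchanger (71.2%), *Slc12a9* (36%) and *Slc4a2* (24.3%), each given with the share of its list that its best peak exceeded. The *Wtap*-BKO-only genes *Slc4a3*, *Slc4a8* and *Slc24a5* exceeded 26.2%, 5.63% and 4.93%. *Slc9a9*, an endosomal sodium/proton exchanger, and *Slc26a10* were among the 5 genes whose rank was highest in *Wtap*-BKO relative to the control, by 26 and 29.4 percentage points. For *Slc26a10* this held by false discovery rate only. By fold enrichment, 19.5 and 4.02, its peak was above 91.5% of the control list and 43.1% of the *Wtap*-BKO list.

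Metal and heme transporters were mostly listed in both genotypes, 16 of 19, as were 73.3% of all named genes. Of these 16, 12 ranked lower in the *Wtap*-BKO list, with a median change of -4.6 percentage points. Among genes in both lists, 60% of SLC genes and 48.8% of all named genes ranked lower there. *Slc40a1*, the iron exporter ferroportin, had 2 peaks in each list but over fewer bases in *Wtap*-BKO, 899 against 390, and ranked at 90.1% in the control and 53% in the *Wtap*-BKO list. *Slc30a1*, the zinc exporter of the plasma membrane, was at 90.4% and 91.1%, and *Slc39a1*, a zinc importer, was at 82.2% and 95.4%. *Slc39a14*, an importer of zinc and iron, was at 85.8% and 74.2%. All peaks of *Slc39a7*, which releases zinc from the endoplasmic reticulum, lay on bases that were also listed under a second gene in the same orientation, and its ranks of 89.6% and 85.2% cannot be given to that gene alone. *Slc41a1*, a magnesium transporter, had 3 control peaks and 1 *Wtap*-BKO peak that shared no base, the *Wtap*-BKO peak lying nearer the 3′ end. The pair of related proton-coupled metal transporters stood on opposite sides. *Slc11a2*, which takes up ferrous iron, had a control peak of 331 bases (55.7%) and none in the *Wtap*-BKO list, whereas *Slc11a1*, the transporter of macrophage phagosomes, had a *Wtap*-BKO peak of 539 bases (chr1:74385494-74386032, plus strand; 78.6%) and none in the control list. The *Slc11a1* peak was the strongest of the 16 *Wtap*-BKO-only genes. Of 7 SLC genes best known from macrophages, 5 had a peak, 4 in both lists and *Slc11a1* in the *Wtap*-BKO list only, with 8 peaks in each list.

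All 3 nucleoside and nucleobase transporters were in both lists, and each of their 4 control peaks was found in the *Wtap*-BKO list. *Slc28a2*, a concentrative purine nucleoside transporter, ranked at 87.9% in the control and 96.5% in the *Wtap*-BKO list on 419 shared bases. *Slc43a3*, a purine nucleobase transporter, was at 89.7% and 98.6%. *Slc29a1*, the equilibrative nucleoside transporter, was at 76.8% and 62.3%.

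In the other classes, nucleotide sugar transporters (13 genes, counted with the acetyl-CoA transporter *Slc33a1*) had 10 genes in both lists and 3 in the control list only, and the median rank change of those in both was -9.74 percentage points (*Wtap*-BKO minus control). *Slc35b2*, which brings the sulfate donor PAPS into the Golgi, differed most in rank among the 90 SLC genes in both lists. Its 2 control peaks of 478 and 449 bases were stronger than 96% and 82.4% of the list, and the single *Wtap*-BKO peak of 91 bases, inside the first of them, was stronger than 13.6%. *Slc35b4*, a transporter of UDP-xylose and UDP-N-acetylglucosamine, had 4 peaks in each list, all found in the other.

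Among the 8 carboxylate transporters *Slc16a1*, the lactate and pyruvate transporter, had 3 peaks in each list and ranked at 97.9% and 97%. These ranks belong to different peaks, of 987 bases in the control and 180 bases, centred 94 bases from the 5′ end, in *Wtap*-BKO. The control peak over the same 180 bases was stronger than 92% of its list, and 1 control peak was not found. *Slc16a3*, a lactate transporter of glycolytic cells, had 2 *Wtap*-BKO peaks (best 43%) and no control peak, and *Slc16a9* and *Slc16a11* were likewise on the *Wtap*-BKO list alone. *Slc16a7*, a high-affinity pyruvate transporter, was at 72.6% in the control and 13.8% in the *Wtap*-BKO list, and *Slc16a6*, an exporter of ketone bodies, was at 7.55% and 57.6%. Their differences were the second largest downward and the largest upward among the 90 genes in both lists.

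Of the 19 genes for vitamins and other organic solutes, the control-only genes included *Slc19a1*, the reduced folate carrier (1 peak of 450 bases, chr10:77042080-77042529, plus strand, stronger than 87.4%), and *Slc52a2*, a riboflavin transporter (83.6%). *Slc22a5*, the carnitine transporter, was control-only as well (56.1%). The second folate transporter, the proton-coupled *Slc46a1*, was the only gene of this class on the *Wtap*-BKO list alone, with 3 peaks of which 2 overlap each other. *Slc5a3*, which takes up myo-inositol, had 5 peaks in each list and ranked at 69.3% in the control and 45% in the *Wtap*-BKO list. All of its *Wtap*-BKO peaks were found in the control list, but 1 control peak was not found, and 1 overlapping pair shared a single base. *Slc6a8*, the creatine transporter, had 3 control peaks and 1 *Wtap*-BKO peak, and the best lay over the same 540 bases in both. *Slc22a3*, an organic cation transporter, had 1 peak that covered 1048 bases in the control and 599 in the *Wtap*-BKO list, at 97.1% and 81.7%.

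The 12 genes without an assigned substrate had 9 in both lists, 2 in the control list only and 1 in the *Wtap*-BKO list only. *Slc35f5* was the stronger of the control-only genes (62.8%), and *Slc22a17*, described as a receptor for the iron-binding protein lipocalin, was on the *Wtap*-BKO list alone (35.5%). *Slc35a5*, a nucleotide sugar transporter by family, was control-only (69.3%). Of the 4 names that are not transporters, *Slc4a1ap* was on the *Wtap*-BKO list alone (35.2%), and *Slc9a3r1*, a scaffold protein that binds sodium/proton exchangers, ranked at 59.7% in the control and 82.3% in the *Wtap*-BKO list. Leaving out these 4 names gave 87 genes in both lists, 31 in the control list only and 15 in the *Wtap*-BKO list only.

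Peak by peak, 124 of 214 control SLC peaks (57.9%, 51.2 to 64.4) shared at least 1 base on the same strand with a *Wtap*-BKO peak, against 67.8% of all control peaks. In the reverse direction 128 of 179 *Wtap*-BKO SLC peaks (71.5%, 64.5 to 77.6) were found in the control list, against 68% of all *Wtap*-BKO peaks. The *Slc25* carriers gave similar shares, 57.7% of 52 control peaks and 75.6% of 41 *Wtap*-BKO peaks. At least 1 control peak was not found for 61 of 121 genes (50.4%, against 45.7% of all named genes), and at least 1 *Wtap*-BKO peak was not found for 39 of 106 (36.8%, 28.2 to 46.3, against 47.5%). The share not found was lower among stronger peaks. With each list cut by false discovery rate into 5 bins of equal size, from the weakest to the strongest bin of the control list 66.7%, 62.1%, 55.1%, 20.4% and 15.6% of SLC peaks were not found, against 58.5%, 43.4%, 31.9%, 17.4% and 9.41% of all peaks. For the *Wtap*-BKO list the shares were 52.5%, 48.8%, 21.6%, 7.14% and 0%, against 63.4%, 47.7%, 32.9%, 13.1% and 2.47%. The control SLC peaks of the strongest bin that were not found numbered 7 of 45, on *Slc2a5*, *Slc1a5*, *Slc24a3*, *Slc19a1*, *Slc52a2*, *Slc35b2* and *Slc26a6*, and all 33 *Wtap*-BKO SLC peaks of the strongest bin were found.

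**Figure D2:**
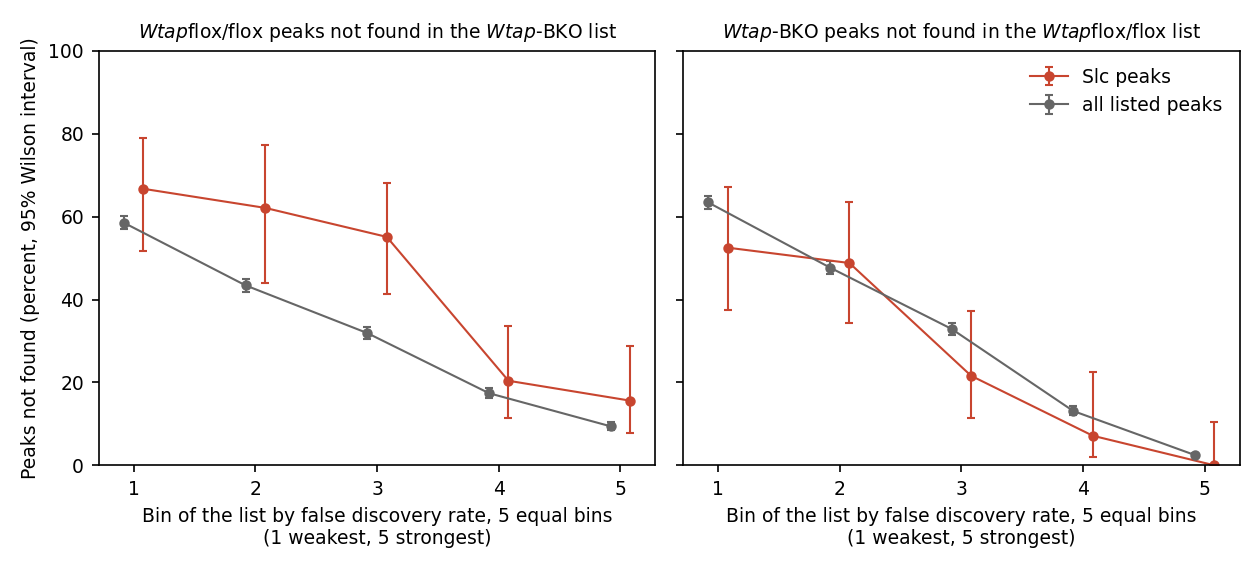
Share of peaks not found in the other list (vertical axis, percent) by bin of the peak's own list (horizontal axis, 1 weakest to 5 strongest), for *Wtap*flox/flox peaks (left) and *Wtap*-BKO peaks (right). Red points are SLC peaks, grey points all peaks, and bars are 95% Wilson intervals, which cover counting error only. In bin 3 of the *Wtap*flox/flox list 55.1% of SLC peaks and 31.9% of all peaks were not found.

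The 90 genes listed in both genotypes were compared by the rank of their strongest peak, which can lie at a different site in each list. This rank was lower in the *Wtap*-BKO list for 54 genes (60%, 49.7 to 69.5), against 48.8% of all 7409 named genes in both lists. Among *Slc25* carriers it was lower for 16 of 22 (72.7%, 51.8 to 86.8), so the shift was not particular to the genes of the rule. The median change for SLC genes was -2.61 percentage points, with quartiles of -14.6 and 7.75. That for all genes was 0.355 and that for *Slc25* carriers -6.78. Large differences were mostly downward. The rank was lower in *Wtap*-BKO by over 25 percentage points for 17 genes (18.9%, 12.1 to 28.2) and higher by as much for 4 (4.44%, 1.74 to 10.9), whereas for all genes these shares were 12.9% and 11.6%. Beside *Slc35b2*, *Slc16a7* and *Slc36a1*, the 5 genes with the largest downward difference included *Slc10a3*, a family member without an assigned substrate (76.9% and 30.6%), and *Slc35f6* (89.3% and 49.2%). The control peak of *Slc10a3* shared bases with a peak listed under a second gene in the same orientation, so its rank cannot be given to *Slc10a3* alone. The peaks of *Slc26a10* in both lists lay opposite a peak on the other strand. So did the weaker control peak of *Slc20a1* (7.9%), but not the peak that gave its rank. The median change was negative for nucleotide sugar (-9.74), orphan (-12.4), vitamin and other organic solute (-6.99) and metal (-4.6) transporters, near 0 for sugar (-0.887) and amino acid (-0.838) transporters, and positive for ion (1.97), nucleoside (8.58) and carboxylate (9.19) transporters. When the median peak of each gene replaced its strongest, 52.2% of the SLC genes ranked lower. Ranking by fold enrichment gave 60%, although single genes such as *Slc26a10* changed direction.

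**Figure D3:**
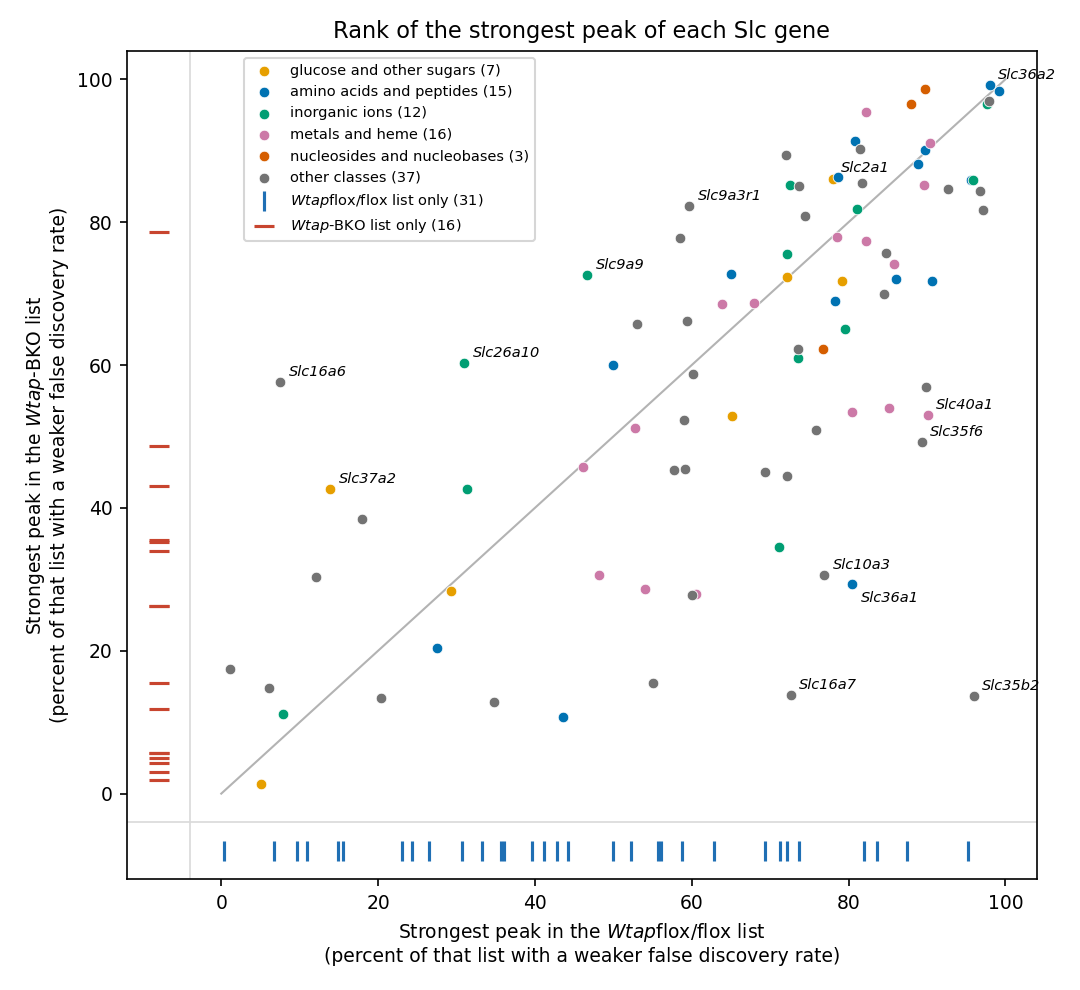
Rank of the strongest peak of each *Slc* gene in the *Wtap*flox/flox list (horizontal axis) and in the *Wtap*-BKO list (vertical axis), both as the percentage of that list with a weaker false discovery rate. Points are the 90 genes in both lists, coloured by substrate class, the line marks equal rank, and ticks along the margins are the 31 *Wtap*flox/flox-only and 16 *Wtap*-BKO-only genes. 54 points lie below the line, *Slc35b2* farthest from it.

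Peaks covered fewer bases in the *Wtap*-BKO list on most SLC genes in both lists. Of the 90 genes 55 (61.1%, 50.8 to 70.5) had fewer exonic bases under peaks there, against 54% of all named genes in both lists, and the median ratio of *Wtap*-BKO over control bases was 0.847, against 0.933. Among *Slc25* carriers 19 of 22 (86.4%) had fewer bases, with a median ratio of 0.633. The medians were 524 bases a gene in the control and 390 in the *Wtap*-BKO list. The number of peaks was the same for 55 genes (61.1%, against 48.9% of all named genes in both lists), lower in the *Wtap*-BKO list for 21 (23.3%, against 23.8%) and higher for 14 (15.6%, against 27.3%). For 47 genes (52.2%, against 42.8%) every peak of both lists was found in the other, while *Slc30a9* and *Slc41a1* had peaks in both lists that shared no base, 2.22% of SLC genes against 6.21% of all. The single control peak was found for all 41 genes that had 1, against 88.7% of all such genes. Every control peak was found for 19 of the 49 genes with more than 1 (38.8%, against 46.2%).

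Some SLC peaks lay near the 3′ end of their gene, in the control list at a share near that of all peaks. Of control SLC peaks with a usable gene position 53 of 211 (25.1%, 19.7 to 31.4) had their centre within 1000 bases of the 3′ end, against 21.7% of all control peaks, and of *Wtap*-BKO SLC peaks 48 of 176 (27.3%, 21.2 to 34.3), against 19.3%. Within 1000 bases of the 5′ end lay 12.8% of control and 12.5% of *Wtap*-BKO SLC peaks, near the 11.4% and 13.1% of all peaks. Control SLC peaks near the 3′ end were found in the *Wtap*-BKO list in 29 of 53 cases (54.7%) and the others in 93 of 158 (58.9%), shares that differ by less than their intervals, against 62.1% and 70.7% of all control peaks. In the reverse direction 66.7% of *Wtap*-BKO SLC peaks near the 3′ end and 73.4% of the others were found in the control list, against 69.7% and 68.7% of all *Wtap*-BKO peaks. The maps of 8 genes show the arrangements described above.

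**Figure D4:**
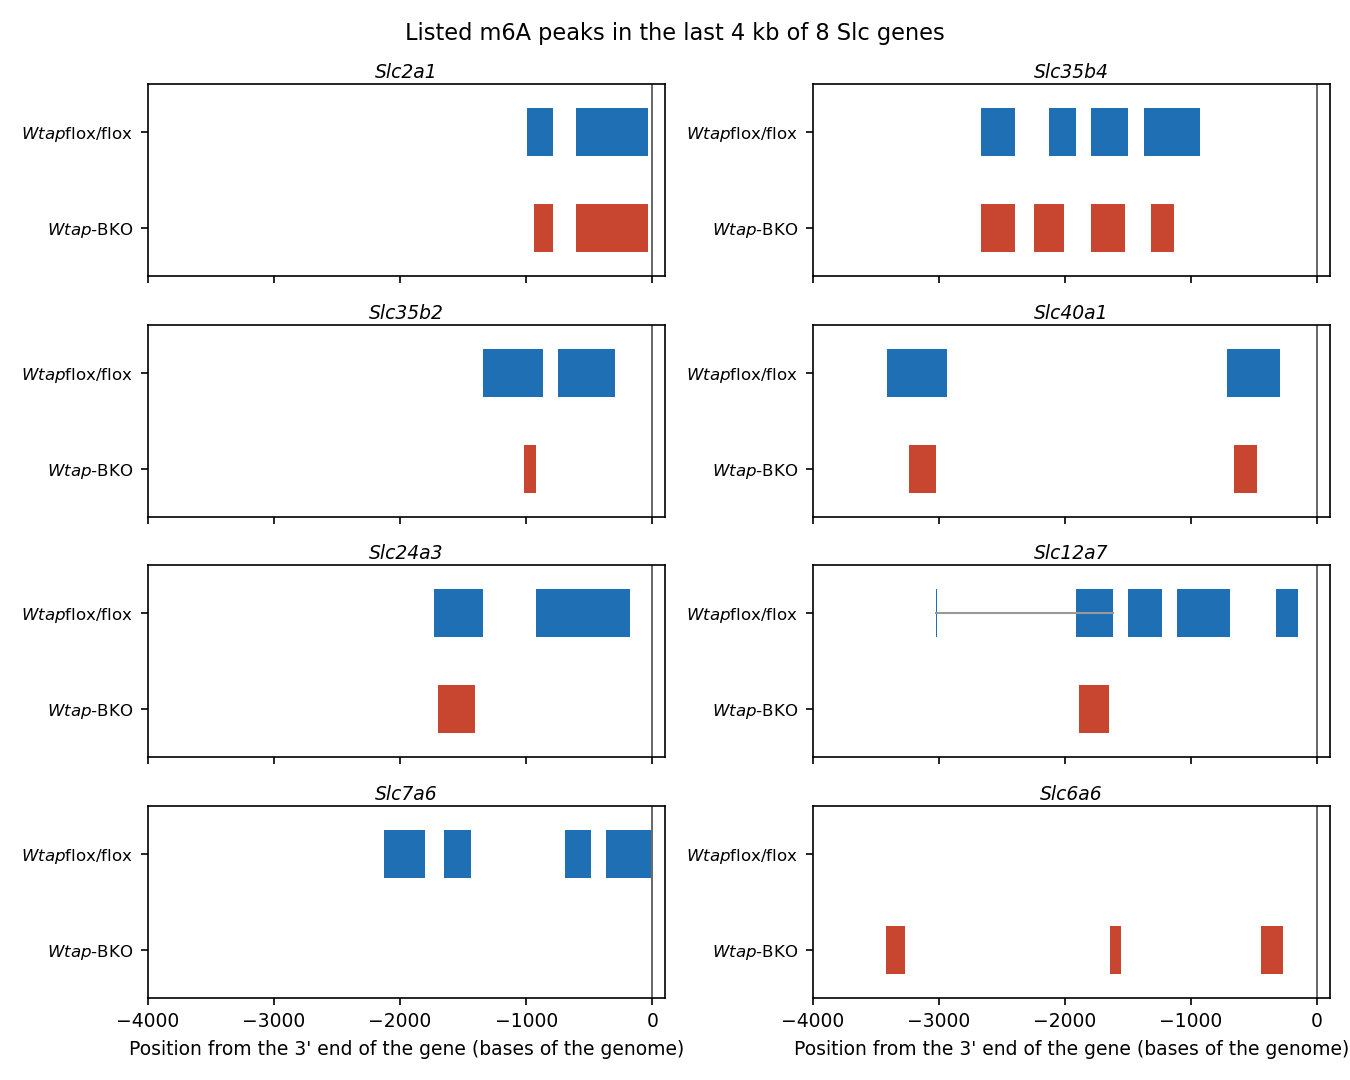
Listed m6A peaks in the last 4 kb of 8 *Slc* genes, drawn as bars by their distance from the 3′ end of the gene (horizontal axis, bases of the genome, 3′ end at 0) for *Wtap*flox/flox (blue, upper row) and *Wtap*-BKO (red, lower row), with a thin line joining blocks of a spliced peak. *Slc2a1* and *Slc35b4* have matching peaks, *Slc35b2* and *Slc40a1* shorter peaks in *Wtap*-BKO, *Slc24a3* and *Slc12a7* no *Wtap*-BKO peak at the 3′ end, and *Slc7a6* and *Slc6a6* peaks in 1 list. Peaks farther upstream are not drawn.

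Transport proteins outside the naming rule were counted in the same way. For scale, 44.4% of all protein-coding names had a peak in either list. Of all named genes with a peak, 73.3% were in both lists, 13.5% in the control list only and 13.2% in the *Wtap*-BKO list only. No group was tested against these shares. Of 38 transporters without an Slc name 23 had a peak, 16 in both lists, 5 in the control list only and 2 in the *Wtap*-BKO list only. Of 16 ion and metal pumps 10 had a peak, 8 in both lists, with the copper pump *Atp7a* on the control list alone and *Atp13a3* on the *Wtap*-BKO list alone. Of 25 partners and regulators of transporters 22 had a peak and 16 were in both lists. The control-only genes of that group were *Nedd4*, a ubiquitin ligase, *Pdzk1*, a scaffold protein, the kinase *Sgk3* and *Tfrc*, the transferrin receptor. *Emb*, the chaperone embigin of monocarboxylate transporters, was on the *Wtap*-BKO list alone, as was *Cab39l*.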

How the data were processed

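MeRIP-seq was carried out on poly(A)+ RNA of iBAT with an m6A antibody, with 1 pooled IP and 1 pooled input for each of 2 genotypes, mapped to their groups by the labels. The submitters' processing notes name fastp 0.19.11, BWA 0.7.12, HOMER 4.9.1 and GRCm38.p6. The methods name MACS2 as the peak caller, although the lists hold spliced blocks along exons, and the caller that wrote them is unsettled. The authors filtered both lists at a false discovery rate under 0.05. The score column deposited by the authors holds the p-value of each peak, and 2 deposited columns of scores hold log10 p-values and log10 false discovery rates. The deposited fold enrichment is the ratio of IP to input in the same genotype, and its scaling for depth is not given in the sources used here.

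From these lists, peaks were matched, ranked and counted in Python 3.11.15 with numpy 2.4.6, scipy 1.17.1 and pandas 2.3.3, with figures from matplotlib 3.10.9. Sharing 1 or more exonic bases, in the same orientation, with any peak of the other list made a peak found. Overlapping peaks of a gene were merged before bases were counted. Distances run from the centre of a peak to the gene ends of a RefSeq gene table of GRCm38.p6, for genes spanning at least 3000 bases. No transcript annotation was used, so UTR and coding positions were not analysed here. The matching step was checked on simulated lists derived from 18400 control peaks, of which all 18400 were matched or missed as simulated. Read totals are unknown, so precision is given only as 95% Wilson intervals, which treat peaks as independent. With 1 pooled sample a group, no test was made.

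Each gene was given 1 substrate class from its family and known substrate. The members and all gene lists were chosen with earlier results of these data known. Genes named are those of adipose and general transport physiology, the 10 strongest of each single-list group, the 5 with the most peaks, the 5 largest rank differences each way and single-list genes of the sugar, amino acid, ion and metal classes. Some genes that meet this rule are not reported here. Other genes were named after their values were seen. Alternatives were a false discovery rate under 1e-05, other overlap rules, other ranks, other windows, and leaving out peaks of uncertain gene or names that encode no transporter.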

Additional observations from a re-analysis of the deposited data

How the results depend on the processing

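Of 46 values recomputed under the alternatives, 30 stayed within their counting interval or within 1.5 times of the count. The 16 others follow. When both lists were restricted to false discovery rates under 1e-05, the *Wtap*-BKO-only genes numbered 7 in place of 16, sugar transporters 4 in both lists and 1 in the *Wtap*-BKO list only in place of 7 and 2, amino acid transporters 1 *Wtap*-BKO only in place of 4, and metal transporters 4 control only in place of 2. With the same limit on the peaks searched from, 68.8% of control and 91.6% of *Wtap*-BKO SLC peaks were found, and genes with a peak not found numbered 36 and 8. Counting any peak on the same gene gave 80.8% and 87.7% found, and requiring 50% of bases gave 50.5% of control peaks. Windows of 500 and 2000 bases at the 3′ end held 12.3% and 42.7% of control and 14.8% and 44.3% of *Wtap*-BKO SLC peaks. A smaller share of control than of *Wtap*-BKO SLC peaks was found in all 4 of the overlap settings, 67% of *Wtap*-BKO peaks being found at 50% of bases and 57.4% and 71% without peaks of uncertain gene. Shares over all peaks are given at the main setting only, 67.8% and 68%. The gap at these 4 settings therefore cannot be set against that of all peaks. No paired analysis was possible because each genotype has 1 pooled sample per fraction, and no replicate could be left out. Depth is unknown, so a missing peak cannot be told apart from too few reads or less transcript.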
